A study of Mus musculus with 4 samples.

Results

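The replication-dependent histone genes were taken as every gene whose symbol in GENCODE vM21, a mouse gene annotation, starts with Hist1h, Hist2h, Hist3h or Hist4h. The annotation holds 70 such genes among 55450, of which 67 are protein-coding and 3 are pseudogenes. They divide into 6 H1, 20 H2A, 19 H2B, 12 H3 and 13 H4 genes. DNA methylation was read for them by reduced representation bisulfite sequencing, in which bisulfite converts unmethylated cytosines and leaves methylated ones. The deposited level of a region is the fraction of its CpG cytosines read as methylated, from 0 to 1, listed once per gene for its promoter (the 2 kb before its start), its 5′ UTR, its exons and its 3′ UTR. Of the 70 histone genes, 38 had a level in at least 1 of these 4 region classes and 32 had none, against 25813 genes of the whole annotation with a level.

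The cells were C3H10T1/2 MSCs, a line from a mouse embryo that is used as a model of mesenchymal stem cells. All 4 cultures were transfected with siRNA, with a transfection time of 48 h. The NC library came from cells with a control siRNA and the siDNMT1 library from cells with an siRNA against DNMT1, the enzyme that copies CpG methylation to the new DNA strand. The NC OB and siDNMT1 OB libraries came from the corresponding cells after 3 days of induction for osteoblast (OB) differentiation with ascorbic acid, β-glycerophosphate and dexamethasone, and the other two were not induced. Each condition is 1 library of 1 line, so no difference below has a replicate check, and no test or p-value is given. Neither the knockdown nor the identity of the cells can be read from methylation levels. The libraries list 155398 to 159705 regions each, without read counts, so the depth behind every level is unknown.

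Replication-dependent histone genes supply the bulk of new nucleosomes while DNA is copied, and their transcription rises on entry into S phase. They lie in clusters of small genes, mostly without introns, and many are arranged in divergent pairs that share the stretch between their starts. Their mRNAs end in a conserved stem-loop in place of a poly(A) tail, which is bound by SLBP. A few of them, among them the testis genes Hist1h1t, Hist1h2ba and Hist1h2aa, are used in the male germ line in place of the common forms.

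The 3′ element of these transcripts is shown first, as a sequence pattern that was found in many but not all of the genes. Variant forms of it, or places farther on, were not searched. The pattern GGNNNTTTTCANNGCC was searched on the strand of each gene, from its start to 100 bases past its annotated end, and 50 of the 70 genes held it. Among protein-coding genes it was found in 49 of 67 histone genes (73.1%) and 241 of the 21871 others (1.10%), which are longer, with a median of 17561 bases against 539. Within the last 100 bases of a gene and the next 100, it was found in 29 of the 67 histone genes and in 0 of the 21871 others. All 8 H4 genes with a match carried the form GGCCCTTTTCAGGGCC, and the 5 H1, 15 H2A, 14 H2B and 8 H3 genes with a match carried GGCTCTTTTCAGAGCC. The runs below are from GRCm38, 5′ to 3′ on the gene's strand, with the stem-loop in capitals, for a gene with a methylated body (Hist1h2aa), genes with intermediate levels (Hist1h1a, Hist3h2ba) and genes with low levels (Hist1h1c, Hist1h4c, Hist4h4).
Hist1h2aa, chr13:23934886-23934911, plus strand: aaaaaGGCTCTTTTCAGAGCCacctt
Hist1h1a, chr13:23764387-23764412, plus strand: ccaacGGCTCTTTTCAGAGCCaccaa
Hist3h2ba, chr11:58949344-58949369, plus strand: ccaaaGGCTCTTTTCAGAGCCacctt
Hist1h1c, chr13:23739507-23739532, plus strand: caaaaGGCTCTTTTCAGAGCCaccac
Hist1h4c, chr13:23698084-23698109, minus strand: caaaaGGCCCTTTTCAGGGCCaccca
Hist4h4, chr6:136803993-136804018, minus strand: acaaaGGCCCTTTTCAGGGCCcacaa
The stem thus differs between H4 and the other types, and the highly methylated Hist1h2aa holds the same 16 bases as the low Hist1h1c. The search found no match in Hist1h2ba, the testis partner of Hist1h2aa and also highly methylated, or in the testis gene Hist1h1t.

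Promoter motifs were searched on both strands in the RefSeq sequences (GRCm38.p6) from 250 bases before to 50 after each start, which matched 62 of the 70 genes. TATAAA, the core of the TATA box, was found in 35 of the 62 (56.5%) and in 13.6% of all 32851 promoters in that table. CCAAT was found in 53 of the 62 (85.5%) against 37.4% of all promoters, in each of the 50 H1, H2A, H2B and H3 promoters and in 3 of 12 H4 promoters. The octamer ATTTGCAT, to which POU-domain factors bind, was found in 7 of 18 H2A and 7 of 16 H2B promoters and in none of the other types, against 1.74% of all promoters. The windows of some divergent pairs overlap, such as those of Hist1h2ae and Hist1h2bg, so a single match can count for both genes. The TATAAA runs below, with the motif in capitals, are from genes with high, intermediate and low (mean under 0.1) methylation, as described next. The deposited levels cover whole regions, so the level at the motif itself is unknown. For Hist1h1a, Hist1h1e and Hist3h2ba this grouping refers to the exon level.
Hist1h2aa, chr13:23934393-23934422, plus strand: ctgccattagacTATAAAtaggcgtggtca
Hist3h2ba, chr11:58948860-58948889, plus strand: ccttcatttaaaTATAAAgatgacaaataa
Hist1h1a, chr13:23763623-23763652, plus strand: acagcactgctcTATAAAtactccgtgcag
Hist2h2ac, chr3:96220905-96220934, minus strand: cctaggagcgccTATAAAggccttagagac
Hist1h1b, chr13:21780636-21780665, minus strand: agcaccggcttaTATAAAccaggagcctga
Hist1h1e, chr13:23622568-23622597, minus strand: agctccgccctaTATAAAcgggcgggcgca
A match is a description of the letters in the window and was not tested as a binding site.

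A smaller share of histone genes had a level than of other genes with as many CpGs before their start. Of protein-coding genes with at least 40 CpGs in the 2 kb window, 6923 of 7377 (93.8%) had a promoter level in some library, and 24 of 51 histone genes (47.1%) did. The gap was present in each band of CpG number, and in the band from 60 to 79 CpGs 2 of 13 histone genes had a level against 1771 of 1844 genes. Exon levels showed the same order, with 34.3% of the 67 protein-coding histone genes and 71.3% of all 21938 protein-coding genes.

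**Figure D1:**
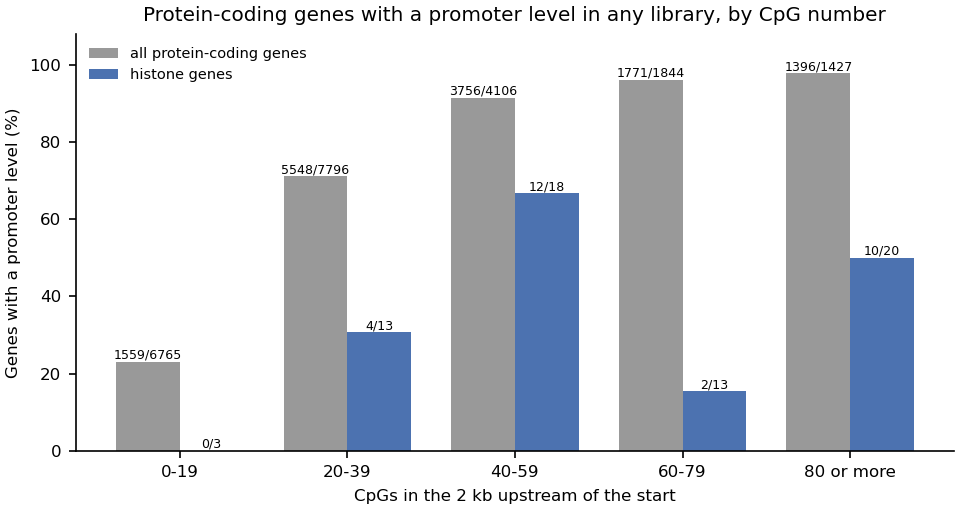
Share of protein-coding genes with a promoter level in any library (y axis, percent) by the number of CpGs in the 2 kb before the start (x axis), for all protein-coding genes (grey) and histone genes (blue), with counts above the bars. The blue bar is shorter in every band, for example 10 of 20 against 1396 of 1427 genes at 80 CpGs or more.

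The listed and unlisted histone genes had similar CpG numbers, with medians of 57.5 CpGs in the 30 promoter windows with a level and 61.5 in the 40 without. The number of CCGG sites in the window, the site cut in many protocols for this assay, had medians of 5 and 4, although the study's methods describe sonication and name no enzyme. Copies of one histone gene are near-identical, so the share of 100-base windows that occur once in the genome was also taken. In the 23 genes with an exon level its median was 91.8%, and in the 47 without it was 56.0%, with 22 of the 47 under 50% and 3 of the 23. In the promoter windows without a level the median was 90.6%. The part of mappability, coverage minimum and fragment selection in these gaps was not tested.

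By type, promoter levels in all 4 libraries were listed for 2 of 6 H1, 9 of 20 H2A, 7 of 19 H2B, 5 of 12 H3 and 5 of 13 H4 genes. Exon levels followed another order, with 5 H1, 2 H2A, 7 H2B, 2 H3 and 7 H4 genes. By cluster, 26 of the 56 Hist1 genes had a level in some class, as did 8 of 10 Hist2 genes, all 3 Hist3 genes and the single Hist4 gene. The first 10 genes without a level, by symbol, were Hist1h1t, Hist1h2ab, Hist1h2ac, Hist1h2ae, Hist1h2af, Hist1h2ag, Hist1h2ai, Hist1h2al, Hist1h2an and Hist1h2ao, so the testis linker histone Hist1h1t has no value here. Hist1h2al, an H2A pseudogene that lies apart from the clusters at chr13:51202727-51203065, was among them.

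**Figure D2:**
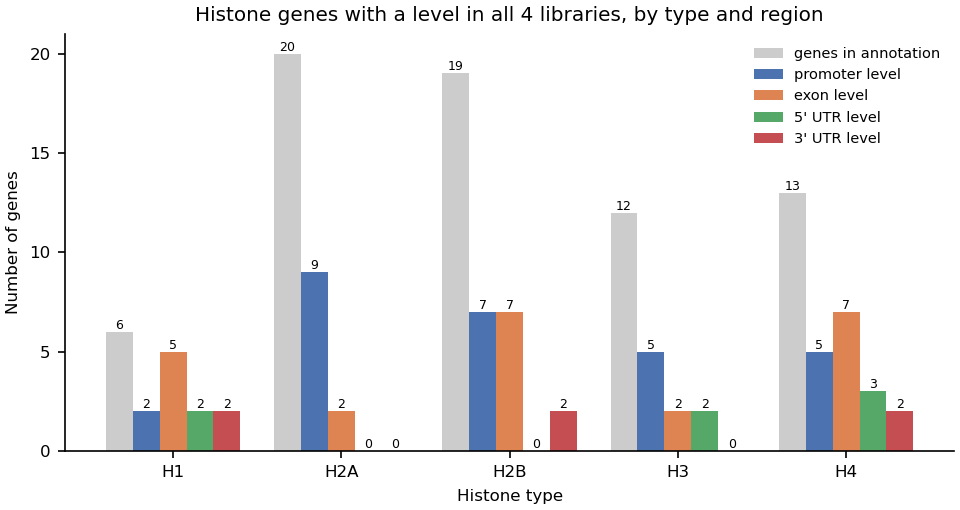
Number of histone genes of each type (x axis) in the annotation (grey) and with a level in all 4 libraries for the promoter, exon, 5′ UTR and 3′ UTR (coloured bars, y axis, number of genes). H1 genes were listed mainly by exon (5 of 6) and H2A genes mainly by promoter (9 of 20).

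Most listed histone genes were nearly free of methylation. The mean of the 4 libraries, an average over the 4 conditions and not over replicates, had a median of 0.0254 over the 28 promoters with all 4 levels, against 0.180 over all 20152 promoters. It was under 0.1 in 24 of the 28 (85.7%) and in 42.0% of all promoters, and over 0.5 in 2 of the 28 (7.14%). The median was 0.0212 over 23 exon entries against 0.353 over all genes, 0.00767 over 7 5′ UTR entries against 0.0273, and 0.0356 over 6 3′ UTR entries against 0.668. The histone 3′ UTRs were thus mostly low, where 73.7% of all 3′ UTR entries had a mean of at least 0.5. Histone exons were mostly low too, while all exon entries were mixed, with 35.9% at 0.5 or more and 29.7% under 0.1. A histone exon or UTR lies close to its start in such a small gene. The CpG number of the 2 kb window had a Spearman rho of -0.22 with the mean level over the 28 promoters, and that of the RefSeq promoter a rho of -0.38 over the 23 of them in that table. Many of these windows overlap.

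**Figure D3:**
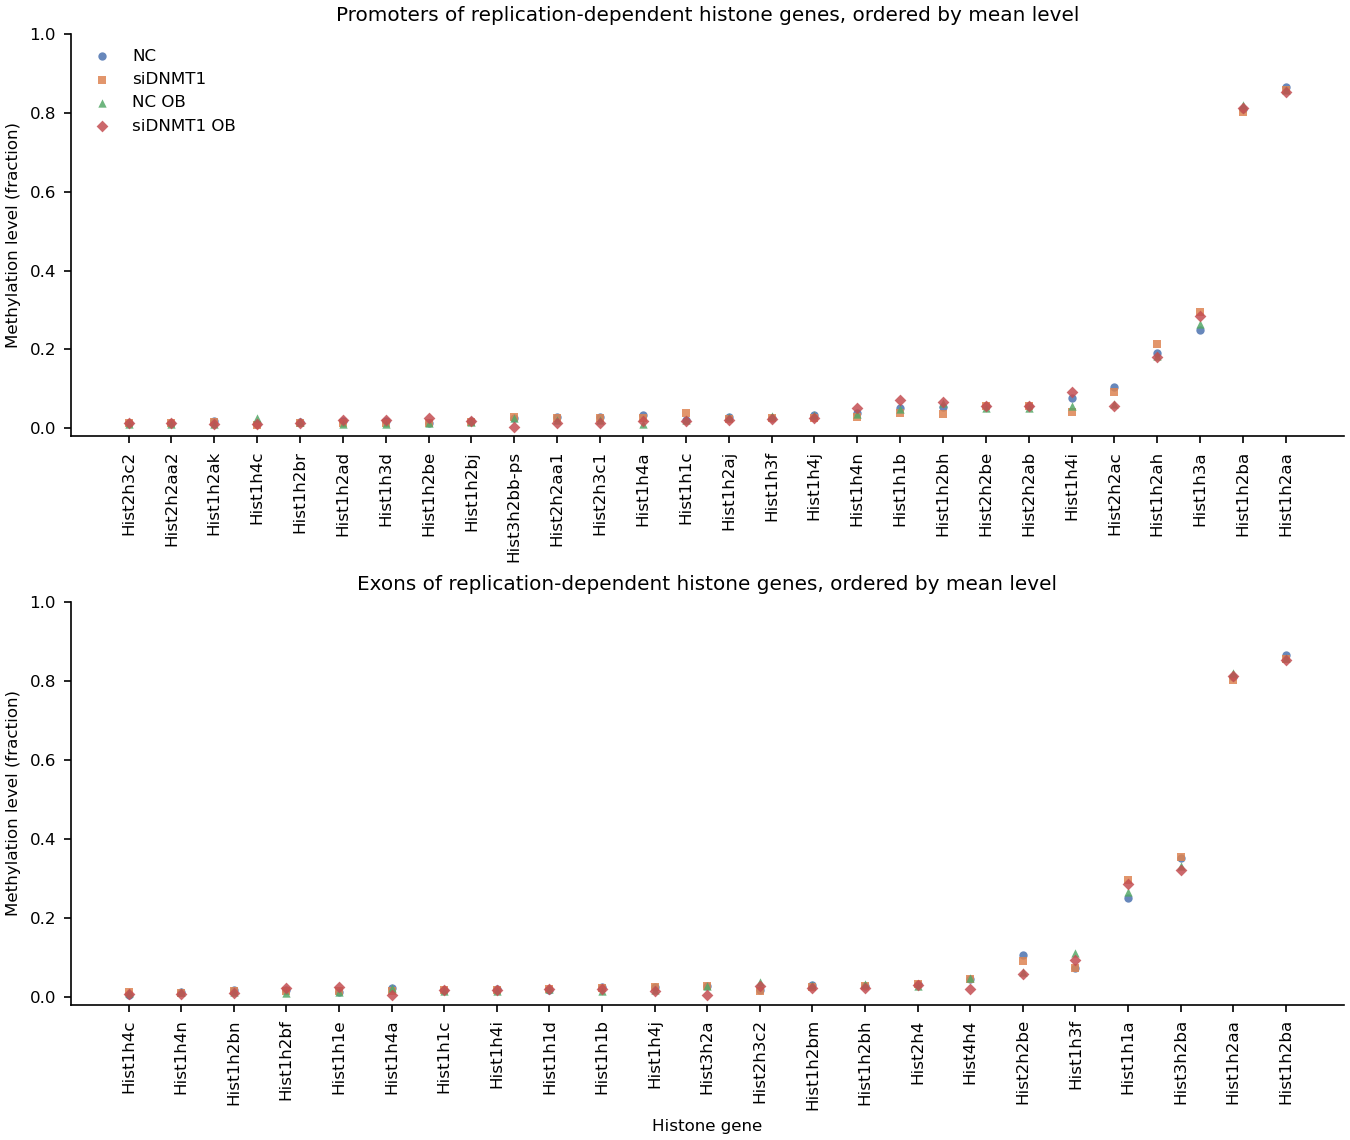
Methylation level (y axis, fraction from 0 to 1) of each histone gene's promoter (upper panel, 28 genes) and exons (lower panel, 23 genes) in the 4 libraries (symbols, 1 point per library), ordered by mean level. The 4 points of a gene lie close together, and Hist1h2aa and Hist1h2ba stand above 0.8 while most genes lie under 0.1.

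The testis pair Hist1h2aa and Hist1h2ba, which encode germline forms of H2A and H2B, had the highest levels of the family. They lie head to head on chromosome 13, Hist1h2ba at 23933773-23934156 on the minus strand and Hist1h2aa at 23934462-23934851 on the plus strand. The Hist1h2aa promoter had levels of 0.865 in NC, 0.857 in siDNMT1, 0.859 in NC OB and 0.853 in siDNMT1 OB. The Hist1h2ba promoter had levels of 0.810, 0.802, 0.820 and 0.812 in the same order. The 4 libraries thus lay close together at each promoter, and every one was above 0.8. Each promoter value equals the exon value of the partner gene to the last digit, and the window of each promoter covers the partner's whole body. If equal values come from the same cytosines, those behind the Hist1h2aa promoter lie 306 to 689 bases before its start, inside Hist1h2ba, and those behind the Hist1h2ba promoter lie 306 to 695 bases before its start, inside Hist1h2aa. The RefSeq promoters of both genes hold each of the motifs above, but they overlap, so a match can be shared. They have 8 CpGs for Hist1h2aa and 7 for Hist1h2ba against a median of 11 over the 62 genes (range 3 to 41).

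The next promoter, Hist1h3a, an H3 gene, had levels of 0.250 in NC, 0.296 in siDNMT1, 0.265 in NC OB and 0.286 in siDNMT1 OB. The same 4 values were listed for the exon of Hist1h1a, a linker histone gene on the opposite strand, and for a CpG island shore. The 3 regions share 683 bases, chr13:23763666-23764348, with 32 CpGs, which lie 1280 to 1962 bases before the start of Hist1h3a and inside Hist1h1a. Both siDNMT1 libraries were higher than both NC libraries there. The island inside Hist1h1a (chr13:23763721-23763936) had levels of 0.235, 0.303, 0.266 and 0.306, and the shore beyond it 0.644, 0.637, 0.635 and 0.616. On the other side, the island that reaches Hist1h4a and Hist1h3a (chr13:23760851-23762347) lay between 0.00820 and 0.0255 in the 4 libraries. Methylation thus went from near 0 to over 0.6 across this end of the cluster.

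Hist1h2ah, an H2A gene at chr13:22035164-22035568, had promoter levels of 0.192 in NC, 0.214 in siDNMT1, 0.184 in NC OB and 0.180 in siDNMT1 OB. The same values were listed for a shore that shares only chr13:22036226-22037568 with the promoter window, 658 bases or more before the Hist1h2ah start. That stretch starts within its divergent partner Hist1h2bk, which had no level. Hist2h2ac, an H2A gene of the Hist2 cluster, had levels of 0.105, 0.0913, 0.0620 and 0.0567, equal to the exon of the divergent H2B gene Hist2h2be. Both OB libraries were lower than both uninduced ones in this Hist2h2ac promoter entry. The island inside Hist2h2be (chr3:96221317-96221570) had the same order with 0.113, 0.101, 0.0647 and 0.0630. It lies within the bases shared by both entries (chr3:96221119-96222812), so it is not a separate measurement.

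At the lower end of the range lay promoters of 4 types. Hist2h3c2, an H3 gene, had levels of 0.0129 in NC, 0.0142 in siDNMT1, 0.0124 in NC OB and 0.0126 in siDNMT1 OB, and its neighbour Hist2h2aa2, an H2A gene, had 0.0135, 0.0144, 0.0121 and 0.0125. Hist1h2ak, an H2A gene, had 0.0180, 0.0152, 0.0109 and 0.0100. These H2A and H3 promoters stayed under 0.02 in every library. Hist1h4c, an H4 gene, had 0.0118, 0.00751, 0.0251 and 0.0120, and Hist1h2br, an H2B gene, had 0.0159, 0.0129, 0.0158 and 0.0135. No order of the 4 libraries was shared by all 5 genes. Of the 100-base windows in the promoter, 5.26% occur once in the genome for Hist1h2br and 42.4% for Hist2h3c2, against 91.7% to 100% for the others. The Hist1h2ak promoter values, however, equal those of the exon of the H2B gene Hist1h2bn, and within that gene 47.9% of the windows occur once. Whether reads of other copies entered these levels was not tested.

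The linker histone genes, whose products bind DNA between nucleosomes, were listed mainly by exon. The Hist1h1b exon had levels of 0.0235 in NC, 0.0213 in siDNMT1, 0.0150 in NC OB and 0.0189 in siDNMT1 OB, and its promoter 0.0515, 0.0388, 0.0490 and 0.0727. The Hist1h1c exon had 0.0162, 0.0172, 0.0142 and 0.0174, and its promoter 0.0208, 0.0379, 0.0208 and 0.0179. Apart from Hist1h1a, described above, each of these exons stayed under 0.03. The Hist1h1d exon had 0.0171, 0.0195, 0.0188 and 0.0184, and the Hist1h1e exon 0.0125, 0.0141, 0.0125 and 0.0253. Among the 5 somatic linker genes the Hist1h1a exon was therefore apart, with a mean of 0.274 against 0.0161 to 0.0197 in the other four. The Hist1h1e 5′ UTR had no level in NC and 0.0385, 0 and 0.0167 in siDNMT1, NC OB and siDNMT1 OB. The promoter entry of the H2B gene Hist1h2be equals the Hist1h1e exon, since the annotation extends Hist1h2be over chr13:23583670-23621124 to a far start, so that its window lies over Hist1h1e. The intron entry of Hist1h2be, the long stretch between these genes, had 0.696, 0.677, 0.706 and 0.653.

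The small Hist3 cluster on chromosome 11 held both states. Hist3h2ba, an H2B gene at chr11:58948920-58949533, had exon levels of 0.350 in NC, 0.354 in siDNMT1, 0.332 in NC OB and 0.321 in siDNMT1 OB, and 3′ UTR levels of 0.266, 0.303, 0.289 and 0.259. Its promoter was listed in siDNMT1 alone, at 0.4. Its CpG island lay between 0.316 and 0.347 and its shores between 0.397 and 0.454. The H2A gene Hist3h2a, at chr11:58954685-58956830, had exon levels of 0.0271, 0.0282, 0.0259 and 0.00337, which are also the promoter values of the divergent pseudogene Hist3h2bb-ps. Its 3′ UTR was listed at 0 in NC and 0.0625 in siDNMT1 and in neither OB library. A few kilobases thus separated an H2B gene at intermediate levels from an H2A gene near 0.

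Hist4h4, the single Hist4 gene and an H4 gene, had exon levels of 0.0461 in NC, 0.0453 in siDNMT1, 0.0474 in NC OB and 0.0189 in siDNMT1 OB, and 3′ UTR levels of 0.0278, 0.0398, 0.0535 and 0.0650. The siDNMT1 OB library was the lowest at its exon and the highest at its 3′ UTR. A shore at chr6:136806190-136808189, whose near end reaches into the Hist4h4 promoter window, lay between 0.452 and 0.482. It does not adjoin the Hist4h4 island (chr6:136804032-136804370) and ends just before the replacement histone gene H2afj, which starts at 136808244. In the Hist2 cluster on chromosome 3, Hist2h2ab and Hist2h2be shared promoter levels of 0.0569, 0.0573, 0.0511 and 0.0561. The H4 gene Hist2h4 had a promoter level in siDNMT1 alone, which was 0, and exon levels of 0.0310, 0.0316, 0.0264 and 0.0294.

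The 5 histone types had medians in a narrow range. Median mean promoter levels were 0.0387 over 2 H1, 0.0265 over 9 H2A, 0.0212 over 7 H2B, 0.0226 over 5 H3 and 0.0307 over 5 H4 genes, while single genes within H2A ranged from 0.0131 to 0.858. By cluster the medians were 0.0269 over 20 Hist1 and 0.0226 over 7 Hist2 promoters. Between the Hist1 genes of chromosome 13 lie 14 other genes with a promoter level, miRNA genes left out, with a median of 0.104 and 6 of 14 under 0.1, against 16 of the 20 Hist1 promoters. Among those neighbours the serine protease gene Prss16 had levels of 0.566, 0.550, 0.544 and 0.552, and Hfe, the hemochromatosis gene, had 0.217, 0.218, 0.230 and 0.209. Zfp184, a zinc finger gene, had 0.0209, 0.0103, 0.0153 and 0.0197, in the range of the histone promoters.

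The entries are fewer measurements than they appear. The 38 genes had 64 entries with a level in all 4 libraries, which held 50 distinct sets of 4 values, and 27 entries shared theirs with another entry. Of the 13 groups of equal entries, 11 joined different genes. One stretch of 345 bases inside the H2B gene Hist1h2bf (chr13:23573852-23574196) carried the values of its own exon and of the Hist1h2ad and Hist1h3d promoters, 0.0177, 0.0149, 0.0103 and 0.0211. Of the 28 promoter windows, 21 reached into another histone gene and 19 overlapped another listed window, and the 28 promoters held 25 distinct sets of values. Counts over histone promoters below therefore include some regions more than once.

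CpG islands and their shores at histone genes are largely the same DNA as the entries above, and 5 of 20 islands and 12 of 24 shores had exactly the levels of a histone gene entry. The 20 islands at histone genes with all 4 levels had a median of 0.0201, and 17 of 20 (85%) were under 0.05, against a median of 0.0300 and 56.0% over all 14095 islands. The 24 shores had a median of 0.0374, against 0.271 over all 16439 shores. Shores within a cluster often lay over the next histone gene, and 17 of the 24 (70.8%) were under 0.1, against 33.9% of all. The highest was a shore beside the H4 gene Hist1h4n (chr13:21829851-21831850), at 0.680 in NC, 0.732 in siDNMT1, 0.714 in NC OB and 0.750 in siDNMT1 OB, next to an island (chr13:21831852-21832117) between 0.00788 and 0.0144.

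**Figure D4:**
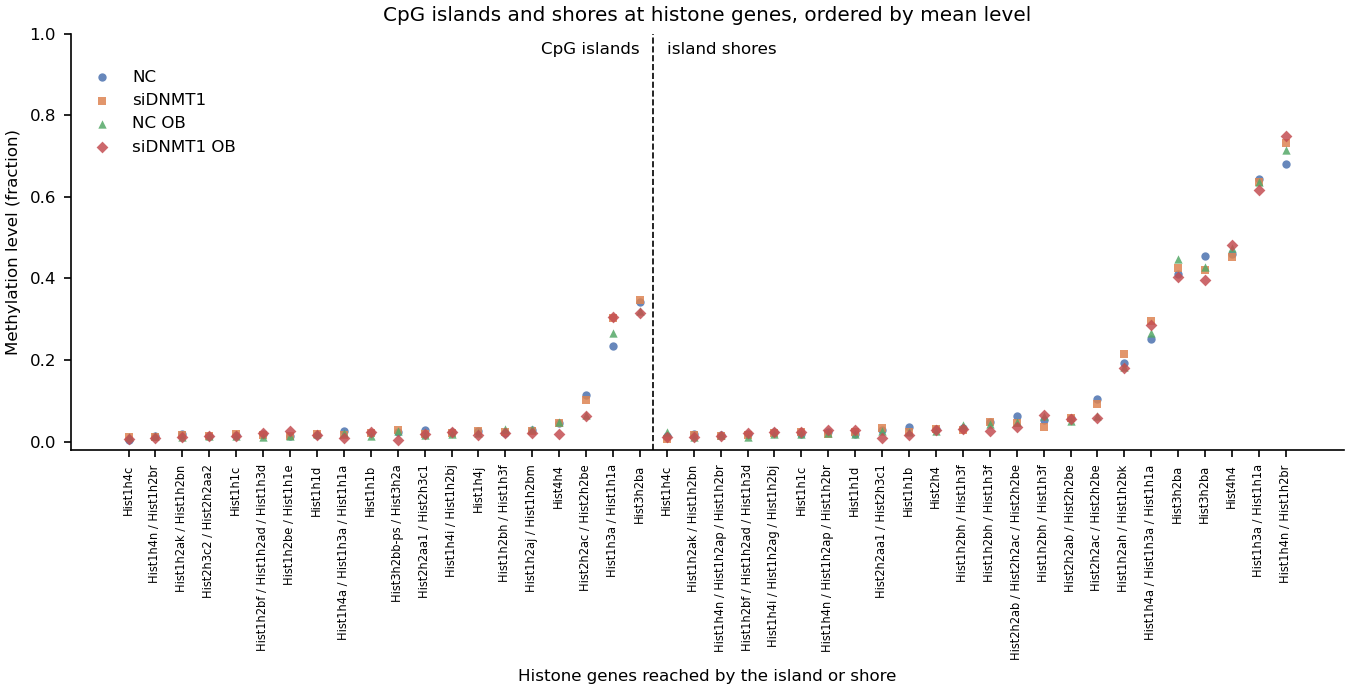
Methylation level (y axis, fraction) of the 20 CpG islands (left of the dashed line) and 24 shores (right) that reach histone genes, in the 4 libraries (symbols, 1 point per library), each class ordered by mean level. Most islands lie near 0, and the islands of Hist1h1a and Hist3h2ba lie above 0.2.

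In the comparison of siDNMT1 with NC before induction, which asks what DNMT1 knockdown did to methylation, 0 of the 28 histone promoters differed by at least 0.1, against 1.48% of all 20152 promoters. The median difference was -0.00284, with 19 promoters lower and 9 higher, against -0.000713 over all promoters. With each library centred on its median over all promoters the histone median was 0.000449, with 11 lower and 17 higher. The largest difference was at Hist1h3a, 0.0455 higher in siDNMT1, and the Hist1h1a island within the same stretch was 0.0680 higher. None of the 23 exon, 7 5′ UTR or 6 3′ UTR entries differed by 0.1, against 1.63%, 1.4% and 2.71% of all genes. A low level leaves little room for a fall, so the same was read among promoters with a mean under 0.1. There, 17 histone promoters were lower and 7 higher, against 3646 lower and 4790 higher of all 8456, with a median absolute difference of 0.00288 against 0.00328. In the other comparisons the low histone promoters differed by more in absolute value than all low promoters, with medians of 0.00696 against 0.00327 for siDNMT1 and NC in OB cells, 0.00520 against 0.00387 for OB and uninduced NC cells, and 0.00622 against 0.00438 for OB and uninduced siDNMT1 cells. With 1 library a side, a shared offset between libraries and a difference at the histone genes cannot be told apart.

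In OB cells, siDNMT1 against NC, 0 of the 28 histone promoters differed by at least 0.1, against 2.19% of all promoters. The median difference was -0.000335, with 14 lower and 14 higher, and over all promoters it was -0.00371. Centring turned the histone median to 0.00970, with 2 lower and 26 higher. The shift subtracted was -0.0100, taken over all promoters, while among all promoters with a mean under 0.1 the median difference was -0.000155. The largest difference was at the H4 gene Hist1h4i, whose levels were 0.0778 in NC, 0.0427 in siDNMT1, 0.0573 in NC OB and 0.0926 in siDNMT1 OB. Its siDNMT1 library was thus 0.0350 lower than NC before induction and 0.0353 higher after it. Exons, 5′ UTRs and 3′ UTRs again held 0 entries with a difference of 0.1, against 2.3%, 1.78% and 3.65% of all genes.

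The comparisons of OB with uninduced cells ask what 3 days of induction did. In NC cells 0 of the 28 histone promoters differed by at least 0.1, against 2.17% of all promoters, and the median difference was -0.00199, with 21 lower and 7 higher, against -0.00320 over all. Centring turned this median to 0.0151, with 3 lower and 25 higher. Hist2h2ac was the farthest, with a level 0.0432 lower in NC OB. In siDNMT1 cells 0 of the 28 differed by 0.1, against 3.36% of all, with a median of -0.00140, 16 lower and 12 higher, against -0.00654 over all, and Hist1h4i was 0.0499 higher in siDNMT1 OB. Centring turned that median to 0.0225, again with 3 lower and 25 higher, so the direction of these small medians depended on the scaling. The shifts subtracted, -0.0171 in NC and -0.0239 in siDNMT1 cells, were taken over all promoters. In size they exceed the median absolute differences of the histone promoters, 0.00620 and 0.00720. Among all promoters with a mean under 0.1 the median differences were -0.00198 and -0.00296, so the centred counts largely restate the shift. No exon, 5′ UTR or 3′ UTR entry reached 0.1 in either comparison, against 2.17%, 2.35% and 2.94% of all genes in NC cells and 3.61%, 2.72% and 4.69% in siDNMT1 cells. At a threshold of 0.05 the count of histone promoters was 0 in each comparison too, against 6.25%, 9.35%, 9.91% and 13.7% of all promoters in the order given here. The 4 comparisons share libraries, so they are given side by side and not counted together.

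**Figure D5:**
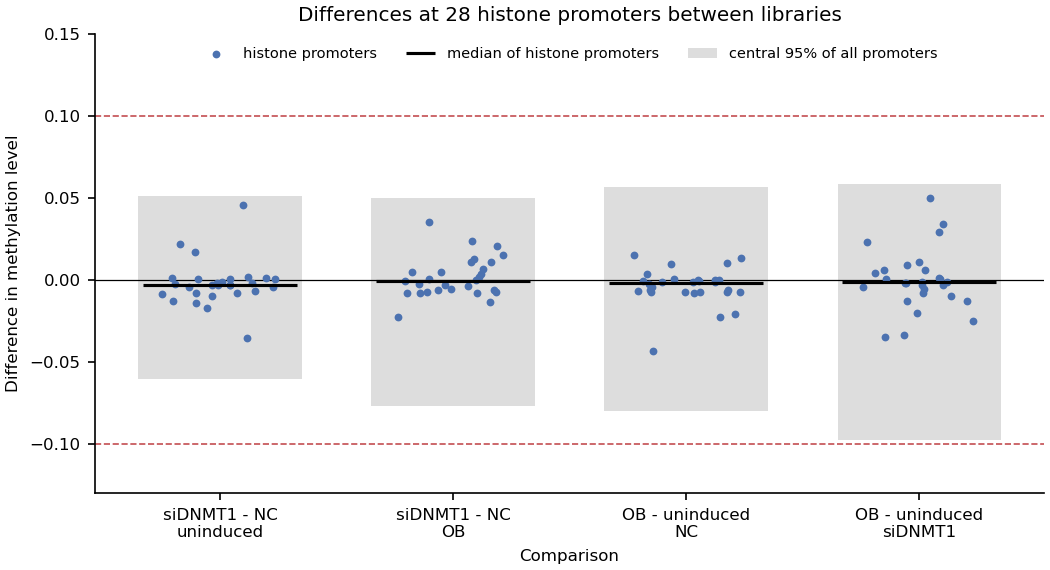
Difference in methylation level (y axis) at the 28 histone promoters (points, spread sideways for view) in the 4 comparisons (x axis), with their median (black line), the central 95% of all promoters (grey bars) and the 0.1 threshold (dashed red lines). All points lie within 0.05 of 0, inside the grey bars.

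Islands and shores at histone genes also held 0 regions with a difference of 0.1 in any of the 4 comparisons, against 0.482%, 0.681%, 1.18% and 1.26% of all islands and 1.91%, 2.59%, 2.86% and 4.48% of all shores, in the order in which the comparisons were given. The largest was the 0.0680 of the Hist1h1a island, and the largest at a shore was 0.0517, beside Hist1h4n.

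Genes that act with these histones had their own range of promoter levels. Here and for the replacement histones below, a level covers the 2 kb before the start, so the level at the start is unknown. Of 22 genes for the transcription and processing of histone mRNA, 18 had all 4 levels, with a median mean of 0.0243 and 12 under 0.1. Npat, the cyclin E-CDK2 substrate that activates histone genes, had levels of 0.0152, 0.0173, 0.0135 and 0.0165, and Slbp, which encodes the stem-loop binding protein, had 0.00994, 0.00692, 0.0126 and 0.00581. Lsm11, of the U7 snRNP that directs 3′ end cleavage, was high at 0.774, 0.756, 0.791 and 0.756. Of the 8 histone chaperone genes 7 had levels, with a median of 0.0191 and 6 under 0.1, and Asf1b, a chaperone of H3 and H4, had 0.0138, 0.0128, 0.00896 and 0.00897.

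All 11 genes of somatic replacement histones, which are made outside S phase and carry poly(A) tails, had promoter levels, with a median of 0.0608 and 6 under 0.1. H3f3a and H3f3b, which encode the same H3 replacement protein, lay far apart, with 0.0127, 0.0192, 0.0140 and 0.0129 for H3f3a and 0.615, 0.548, 0.598 and 0.581 for H3f3b. Cenpa, the centromeric H3 form, had 0.846, 0.823, 0.838 and 0.825. None of the 7 germline replacement histone genes had a level in all 4 libraries, and H2afb2 had one in siDNMT1 alone, 0.1. In none of these lists did a promoter differ by 0.1 in any comparison, where the shares of all promoters that did were those given above. The largest difference was at H2afy2, a macroH2A gene, with levels of 0.375, 0.374, 0.347 and 0.286.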

How the data were processed

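RRBS was read in 4 libraries of C3H10T1/2 MSCs, 1 per condition. Per the labels and methods, the authors used Trimmomatic 0.36 for read filtering and Bismark 0.16.3 for alignment against mm10, and deposited, per library, the fraction of methylated CpG cytosines of each region. How cytosines were weighted and the coverage minimum are not given in the sources used here, and although the labels call the assay RRBS, the study's methods describe sonication and name no restriction enzyme. Depth is unknown, so no interval was computed for a level. RNA data were not analysed here.

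Ensembl IDs were matched to symbols and positions in GENCODE vM21, and sequences from RefSeq (GRCm38), counted from 1. Starts of islands are counted from 0 in the files, since all 14354 islands then begin with CG. The promoter window was 2000 bases before the gene start. Differences were taken over entries with a level in all 4 libraries, with 0.1 as the threshold. Alternatives concerned the size of a counted difference, which members entered, a floor on the level, centring, and equal entries counted once, the last of which was chosen after the data were seen.

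Named genes were those with an entry that differed by 0.1 (none did), the 5 highest and 5 lowest promoters, the testis genes, Hist3 and Hist4 members, the first 5 Hist2 members by coordinate, the linker genes Hist1h1a to Hist1h1e, and up to 10 genes without a level. Hist1h2be, Hist1h2bf, Hist1h2bk, Hist1h4i, Hist1h4n, Hist2h4 and the other genes of the text were named after their values were seen. The members and lists were chosen with earlier results of these data known. Tables were made with pandas 2.3.3 and scipy 1.17.1 under Python 3.11.15.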

Additional observations from a re-analysis of the deposited data

How the results depend on the processing

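Of 28 median differences under an alternative, 19 kept their sign and stayed within the 95% interval of the main median, and 8 turned. That interval was taken from the ordered differences of the promoters and treats overlapping promoters as separate. Centring each library on its median over all promoters turned all 4: to 0.000449 and 0.00970 for siDNMT1 against NC, uninduced and OB, and to 0.0151 and 0.0225 for OB against uninduced, NC and siDNMT1. The library medians themselves differed by -0.00329, -0.0100, -0.0171 and -0.0239. Among all promoters with a mean under 0.1 the median differences were 0.000741, -0.000155, -0.00198 and -0.00296. Centring thus shifts low promoters by more than promoters at such levels differed. The OB siDNMT1 median also turned over protein-coding genes (0.000307), Hist1 genes (0.000565) and promoters with a mean of at least 0.05 (0.00351), and the OB median in siDNMT1 cells turned over Hist1 genes (0.000778). Over the 10 promoters with a mean of at least 0.05, the uninduced siDNMT1 median moved to -0.00816. The share of low promoters was 64.3% under 0.05. Counts of entries past the threshold were 0 throughout, which says little of stability, since most levels are too low to fall by 0.1. No paired analysis was possible because each condition has only 1 library. A fit of siRNA and induction together was not run, and leaving out a library would remove a condition. Depth is unknown.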
